A study of Homo sapiens with 6 samples.

Results

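BMF and the BCL2 family were measured by RNA-seq in NSCLC cell lines with and without knockdown of the lncRNA MALAT1. The 10 genes were chosen by their symbols in the deposited table of 46427 genes: the BH3-only genes BMF, BCL2L11, BIK, BID, and BAD, the survival genes BCL2, BCL2L1, and MCL1, and the effector genes BAX and BAK1. All 10 were found, all 10 had reads in each library, and all 10 passed the filter on low counts. BMF was picked because its reads were higher after si-MALAT1 in each cell line, so its change with si-MALAT1 is described here and not tested. The other 9 genes are its family, and the rule that names them uses no value of theirs, although results of these libraries were known when they were listed.

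The 6 libraries came from H460, H1299, and A549, established lung tumour lines, each with a control and a si-MALAT1 library. The control label reads "non" for treatment and "tumor" for genotype, and the other label reads "siMALAT1 transfection" with the genotype "MALAT1 knockdown". The methods also describe a si-Control, and which control was sequenced is not stated in the sources used here, so a change may include an effect of transfection, which was not tested. Each line and condition had 1 library, with 42506818 to 68515992 reads counted on genes. Nothing in the labels says that further cultures were made, so p-values measure only the spread between these libraries. MALAT1 was lower after si-MALAT1 in each line, with log2 fold changes of -2.84 in A549, -2.32 in H460, and -2.96 in H1299.

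The epithelial markers KRT8 and KRT18 were high, from 123 to 2920 TPM, while EPCAM was between 0.252 and 8.04 TPM. They differed with si-MALAT1 in each line. KRT8 had log2 fold changes of -1.16 in A549, -0.22 in H460, and -0.22 in H1299, KRT18 had -1.23, -0.48, and -0.1 in this order, and EPCAM had 1.16, 1.33, and 0.99. The summed level of the 3 was 480 to 4700 TPM in the control and 458 to 2040 TPM in the si-MALAT1 libraries, and its part in the results was not tested. The leukocyte markers PTPRC and CD3E and the endothelial marker CDH5 had 0 reads in the 6 libraries. The summed level of the 3 fibroblast markers was 0.166 to 1.29 TPM in the control and 0.573 to 2.03 TPM in the si-MALAT1 libraries. Most of it was COL1A1, since COL1A2 had at most 5 reads and DCN at most 30. In the H1299 control, which had the lowest sum, COL1A1 was 0.109 TPM and DCN 0.057 TPM. The leukocyte list summed to between 9.4 and 47.3 TPM, all from CD68, and the endothelial list to at most 0.0956 TPM. CDKN2A had 0 reads in A549, which is known for a homozygous deletion of it, and also 0 in H460, but 2938 and 2679 in H1299.

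The BCL2 family sets the threshold for mitochondrial apoptosis. BCL2, BCL2L1, and MCL1 encode the guardians BCL-2, BCL-XL, and MCL1, which hold the effectors BAX and BAK in check, and a BH3-only protein blocks the guardians or activates the effectors through a short helix, the BH3 domain. BMF is a BH3-only protein that is known to be held at the myosin V motor by a dynein light chain and to be released when cells lose their attachment or their actin skeleton is disturbed, which is why it is studied in epithelial and tumour cells. Many members are controlled after transcription, by phosphorylation, cleavage, or degradation, so mRNA levels describe only part of their activity.

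The feature that the 10 genes share is the BH3 core, and its 18 coding bases are given for each gene. The BH3 helix is the part through which BH3-only proteins act, as described above. Each sequence was read from GRCh38 on the coding strand with the deposited annotation, and the capitals mark the codon of the leading leucine and that of the aspartate at the end of the core.
BMF: CTTcagtgcattgcaGAC
BCL2L11: TTGcggcgtattggaGAC
BIK: CTGgcctgcatcgggGAC
BID: CTCgcccaggtcgggGAC
BAD: CTCcggaggatgagtGAC
BCL2: CTCcgccaggccggcGAC
BCL2L1: CTGagggaggcaggcGAC
MCL1: TTAcgacgggttgggGAT
BAX: CTCaagcgcatcgggGAC
BAK1: CTCgccatcatcgggGAC

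The codon before the aspartate reads glycine in 8 of the 10 genes. BMF was the exception with alanine, and BAD the exception with serine. The BMF core lies at chr15:40104207-40104224 on the minus strand, in a coding exon, and its leucine is residue 137 of 184. The core of BCL2L11, the gene of BIM, lies at chr2:111150103-111150120 on the plus strand, with its leucine at residue 152 of 198. The others lie at chr22:43127716-43127733 (BIK, plus), chr22:17739427-17739444 (BID, minus), chr11:64271634-64271651 (BAD, minus), chr18:63318361-63318378 (BCL2, minus), chr20:31721934-31721951 (BCL2L1, minus), chr1:150578877-150578894 (MCL1, minus), chr19:48955787-48955804 (BAX, plus), and chr6:33575399-33575416 (BAK1, minus). The pattern searched was a leucine, any 3 residues, then glycine, alanine, or serine, and then aspartate. It is short, and at least 1 match was present in 35.6% of 19354 annotated coding genes, and BID holds a second match outside its BH3 domain, so a match alone does not mark a BH3 protein.

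The core is not in every transcript of these genes. Of the annotated coding transcripts, 2 of 4 of BMF, 9 of 18 of BCL2L11, 3 of 7 of BID, and 5 of 8 of BAX carry it, while those of BIK, BAD, BCL2, BCL2L1, MCL1, and BAK1 all do. The deposited values are per gene, so a BMF count sums transcripts with and without the BH3 core, and these cannot be told apart.

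BMF (Gene ID 90427, chr15:40087890-40108879 of GRCh38, minus strand) had 101 reads in control H460 cells and 429 in si-MALAT1 cells. The reads went from 1016 to 4013 in H1299 cells and from 202 to 560 in A549 cells. As TPM, which corrects for transcript length and depth, the control and si-MALAT1 levels were 1.22 and 3.04 in A549, 0.365 and 1.51 in H460, and 3.76 and 17.0 in H1299. BMF was thus the lowest of the 10 genes in the H460 control, and the H1299 control exceeded the si-MALAT1 libraries of both other lines. After scaling for depth, the log2 fold change was 1.32 in A549 (95% interval 1.09 to 1.57), 2.16 in H460 (1.85 to 2.5), and 2.11 in H1299 (2.01 to 2.21). The last values are 4.46-fold in H460 and 4.32-fold in H1299, and the intervals cover counting error only. Averaged over the lines, the log2 fold change was 1.86 ± 0.47 (SD, n = 3). In these bulk libraries, more cells with BMF transcripts and more transcripts per cell cannot be told apart.

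Among the 17834 genes with a read in every library, BMF ranked 63rd by log2 fold change in H460, 47th in H1299, and 409th in A549, which are the 99.6, 99.7, and 97.7 percentiles. BMF was 1 of 212 genes, 1.19% of these, that were higher by at least 1.5-fold (a log2 fold change of 0.585) in all 3 lines, which follows from how it was picked. The log2 fold changes of BMF depended on the scale. On log2(TPM + 1) they were 0.88 in H460, 1.92 in H1299, and 0.86 in A549, because the pseudocount weighs on levels near 1 TPM.

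**Figure D1:**
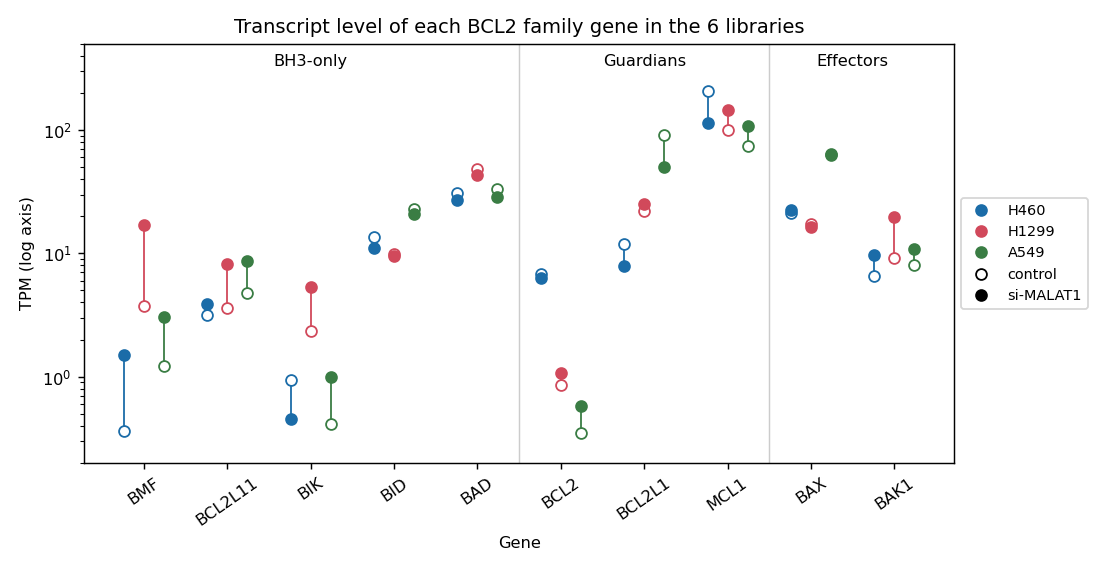
Level of each gene in TPM (log axis) in the control (open) and si-MALAT1 (filled) library of each cell line, 1 library per point. BMF lies below 4 TPM in every library but the H1299 si-MALAT1 library, at 17.0 TPM, while MCL1 lies between 74.4 and 208 TPM.

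The other BH3-only genes did not all move with BMF. BCL2L11 (Gene ID 10018), whose product BIM binds every guardian, had 843 control and 1090 si-MALAT1 reads for H460, 855 and 1781 for H1299, and 687 and 1605 for A549. By TPM the control and si-MALAT1 levels were 3.14 and 3.9 in H460, 3.6 and 8.17 for H1299, and 4.76 and 8.73 for A549. The groups overlapped because the H460 si-MALAT1 level lay under the A549 control. The log2 fold change was 0.45 (0.32 to 0.58) in H460, 1.19 (1.07 to 1.31) in H1299, and 1.08 (0.95 to 1.21) in A549.

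BIK (Gene ID 638), which encodes a BH3-only protein of the endoplasmic reticulum, had few reads. The control and si-MALAT1 counts were 14 and 37 in A549, 52 and 26 in H460, and 128 and 256 in H1299, or 0.416 to 5.34 TPM. BIK was therefore lower in H460, with a log2 fold change of -0.89 (-1.66 to -0.21), and higher in H1299 at 1.12 (0.82 to 1.45) and in A549 at 1.21 (0.34 to 2.26). The interval in A549 was the widest of any of the 10 genes in a line.

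BID (Gene ID 637), the BH3-only gene whose product is cut by caspases to become active, differed little and in the same direction in each line. Its counts were 1778 and 1780 in A549, 1717 and 1452 in H460, and 1245 and 1037 in H1299, and the log2 fold changes were -0.14, -0.16, and -0.13 in this order. BAD (Gene ID 572), the gene of a BH3-only protein controlled by survival kinases, had the highest level of the BH3-only genes in each library, at 26.9 to 48.1 TPM. Its log2 fold changes were 0.02 in H460, -0.19 in H1299, and -0.18 in A549, so no line moved by 1.5-fold. In H460 its sign depended on the unit, with -0.2 on log2(TPM + 1). BAD overlaps GPR137 on the opposite strand by 1 base.

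The guardians had log2 fold changes of both signs. MCL1 (Gene ID 4170), the gene of a short-lived guardian, had 10165 and 16433 reads in A549, 47298 and 27135 in H460, and 22872 and 28758 in H1299, control first. The levels were 74.4 and 108 TPM in A549, 208 and 114 TPM in H460, and 101 and 146 TPM in H1299. The control libraries thus ran from 74.4 to 208 TPM and the si-MALAT1 libraries from 108 to 146 TPM. Its log2 fold change was -0.72 (-0.74 to -0.7) in H460, 0.46 (0.44 to 0.49) in H1299, and 0.55 (0.51 to 0.58) in A549.

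BCL2L1 (Gene ID 598), the gene of BCL-XL, had 8143 and 4877 reads in A549, 1736 and 1194 in H460, and 3223 and 3220 in H1299. Its log2 fold change was -0.88 (-0.94 to -0.83) in A549 and -0.46 (-0.57 to -0.35) in H460, both lower, and 0.13 (0.06 to 0.2) in H1299. By TPM the level went from 92.0 to 49.9 in A549 and from 11.9 to 7.84 in H460, and it was 22.0 and 25.1 in H1299. ABALON, a gene on the opposite strand, overlaps BCL2L1 by 1090 bases and had a mean of 70.2 reads, and whether reads were counted by strand is not stated.

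BCL2 (Gene ID 596), the founding member of the family, was most abundant in H460, with 2084 and 2054 reads against 233 and 264 in H1299 and 84 and 90 in A549. Its log2 fold changes were 0.06 (-0.03 to 0.15), 0.31 (0.05 to 0.57), and -0.04 (-0.49 to 0.4). In A549 the deposited TPM went from 0.346 to 0.581 while the scaled count did not move, so the sign there depended on the unit, with 0.23 on log2(TPM + 1). In H460 the sign also turned, to -0.1.

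Of the effectors, BAK1 was higher in each line and BAX was not. BAK1 (Gene ID 578), whose product sits in the outer mitochondrial membrane, had 607 and 923 reads in A549, 836 and 1288 in H460, and 1145 and 2136 in H1299. By TPM the control libraries lay at 6.59 to 9.15 and the si-MALAT1 libraries at 9.77 to 19.6. The log2 fold change was 0.46 (0.31 to 0.61) in A549, 0.7 (0.58 to 0.83) in H460, and 1.03 (0.93 to 1.14) in H1299. BAX (Gene ID 581), whose product moves from the cytosol to mitochondria in dying cells, had 2438 and 2763 reads in A549, 1238 and 1344 in H460, and 1047 and 811 in H1299. Its log2 fold changes were 0.04 (-0.04 to 0.11), 0.2 (0.09 to 0.31), and -0.24 (-0.37 to -0.1) in this order, so its lines differed in direction.

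**Figure D2:**
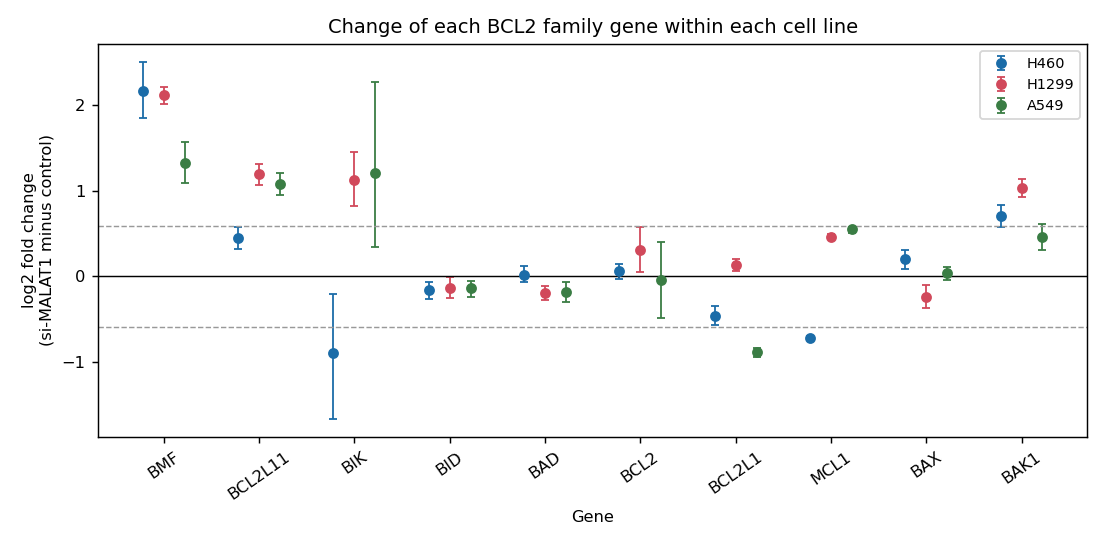
Log2 fold change of each gene within each cell line, si-MALAT1 minus control on RLE-scaled counts plus 1, with exact 95% intervals for counting error. Dashed lines mark a fold of 1.5. BMF, BCL2L11, and BAK1 lie above 0 in each of the 3 lines, and BID lies below 0 in each.

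With the threshold at 1.5-fold, BMF and BAK1 were higher and BIK and MCL1 lower in H460, where 9.5% of all genes were higher and 10.3% lower. In H1299, BMF, BCL2L11, BIK, and BAK1 were higher and 0 of the 10 lower, where 11.7% of all genes were higher and 11.4% lower. In A549, BMF, BCL2L11, and BIK were higher and BCL2L1 lower, where 11.5% were higher and 11.4% lower. The H460 counts over all genes depended on the scale. On scaled counts 1695 genes were higher and 1828 lower, and on log2(TPM + 1) 236 were higher and 803 lower. On log2(TPM + 1), BAK1 in H460 (0.51) and BIK in H460 (-0.41) and A549 (0.49) did not pass 1.5-fold.

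The median log2 fold change of the 10 genes was 0.04 in H460, 0.39 in H1299, and 0.25 in A549, against 0.02, 0.02, and 0.01 for all genes. The 10 genes are few, and BMF, which was picked for being higher, is among them.

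**Figure D3:**
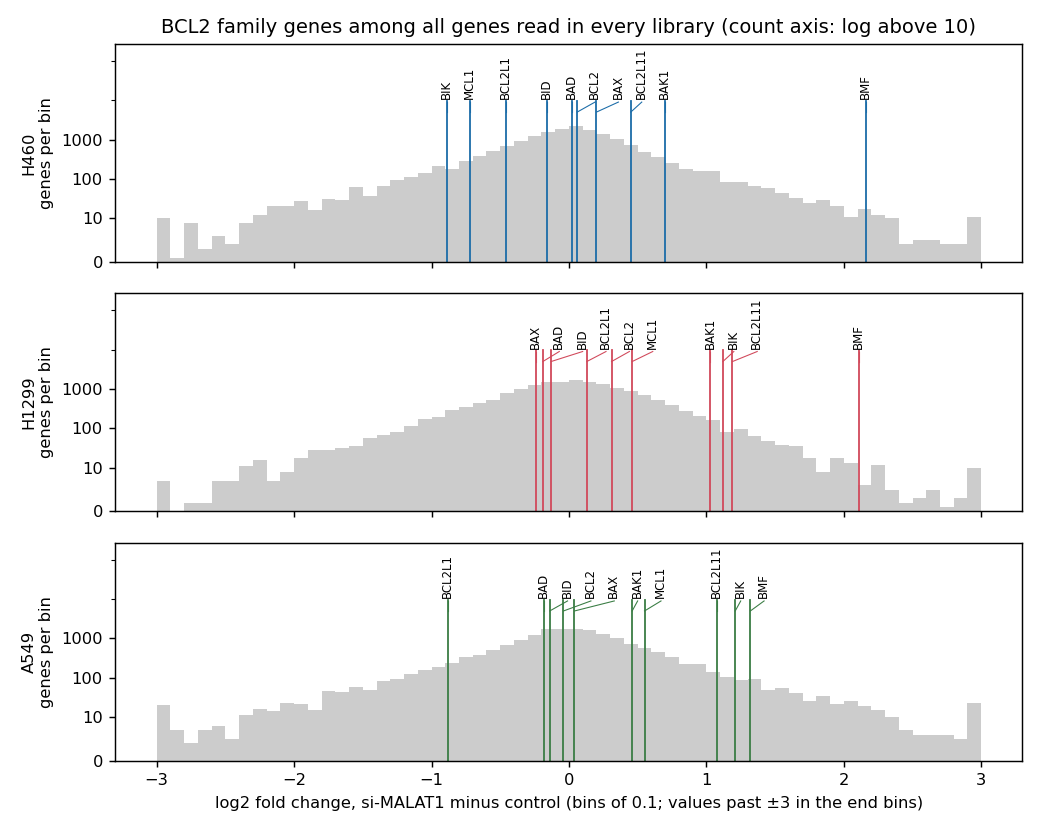
Number of genes per 0.1 bin of log2 fold change (grey, 17834 genes with a read in every library; the count axis is linear to 10 and logarithmic above) with the 10 genes as lines, per cell line. BMF lies at 2.16, 2.11, and 1.32, on the upper edge in H460 and H1299.

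Across the lines, the quasi-likelihood test of edgeR, with each line as a block, called 1 of 19122 genes, or 0.00523%, at an adjusted p under 0.05. That gene was MALAT1, which was lower (adjusted p = 0.0381). Of the others, 0 were called higher, while 2863 genes, or 15.0%, had an unadjusted p under 0.05. With DESeq2's Wald test, 8.41% of the 13561 genes given an adjusted p were called. Of the 9 members tested, 0 passed in edgeR, and BCL2L11 and BAK1 had an unadjusted p under 0.05. BCL2L11, higher in 3 of 3 lines with a mean log2 fold change of 0.91 ± 0.40 (SD, n = 3), had an adjusted p of 0.114 in edgeR and 0.00103 in DESeq2. Without H460 the edgeR value for BCL2L11 was 0.0362, without H1299 it was 0.211, and without A549 it was 0.747. BAK1, higher in 3 of 3 lines with a mean of 0.73 ± 0.29 (SD, n = 3), had an adjusted p of 0.12 in edgeR and 0.00324 in DESeq2, and in edgeR it stayed over 0.05 when any line was left out, from 0.117 to 0.659. Both mean changes were larger than their spread between the lines, and the call depended on the test.

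For the other 7 genes neither tool gave an adjusted p under 0.05. In edgeR it was 0.391 for BCL2L1, 0.536 for BID, 0.641 for BAD, 0.709 for BIK, 0.796 for BCL2, 0.916 for MCL1, and 0.968 for BAX. For BCL2L1, MCL1, BIK, BCL2, and BAX the spread between the lines was larger than the mean change. The means were -0.40 ± 0.51, 0.1 ± 0.71, 0.48 ± 1.19, 0.11 ± 0.18, and -0.0 ± 0.22 in this order (SD, n = 3). BAD had -0.12 ± 0.12. BID had the smallest spread, at -0.15 ± 0.01, and a small mean. DESeq2 gave BIK no adjusted p.

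Added up by class in TPM, the 3 guardians were more abundant than the 5 BH3-only genes and the 2 effectors in every library. The guardians summed to 167 TPM in control and 158 TPM in si-MALAT1 A549 cells, 227 and 128 TPM in H460, and 124 and 172 TPM in H1299. The BH3-only genes summed to 62.8 and 62.5 TPM in A549, 49.0 and 43.8 in H460, and 67.7 and 83.4 in H1299. In H460, BAD went from 31.0 to 26.9 TPM while its scaled counts were 1605.1 and 1630.9. The sums printed are in TPM, and their direction depended on the unit. Added up as scaled counts, which do not correct for transcript length, the BH3-only sum was higher after si-MALAT1 in H460 and A549. So was the guardian sum in A549. The effectors summed to 71.5 and 75.2 TPM in A549, 27.9 and 32.4 in H460, and 26.4 and 36.1 in H1299, so their sum was higher after si-MALAT1 in each line.

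MCL1 made up most of the guardian sum, 91.8% and 89.0% in control and si-MALAT1 H460 cells, and 81.5% and 84.8% in H1299 cells. In A549 its share was 44.6% in the control, where BCL2L1 was the most abundant of the 10 genes, and 68.1% after si-MALAT1. As a share of the guardian sum, the BH3-only sum was 37.7% and 39.5% in A549, 21.6% and 34.2% in H460, and 54.7% and 48.5% in H1299. In TPM this share was higher after si-MALAT1 in H460 and A549 and lower in H1299, while MCL1 was lower in H460 and higher in the other lines. With sums of scaled counts, the share was higher in H1299 as well, so its direction there depended on the unit. The share of BMF in the BH3-only sum was 1.94% and 4.86% in A549, 0.745% and 3.45% in H460, and 5.56% and 20.4% in H1299. In the H1299 si-MALAT1 library BMF was second to BAD among the BH3-only genes.

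**Figure D4:**
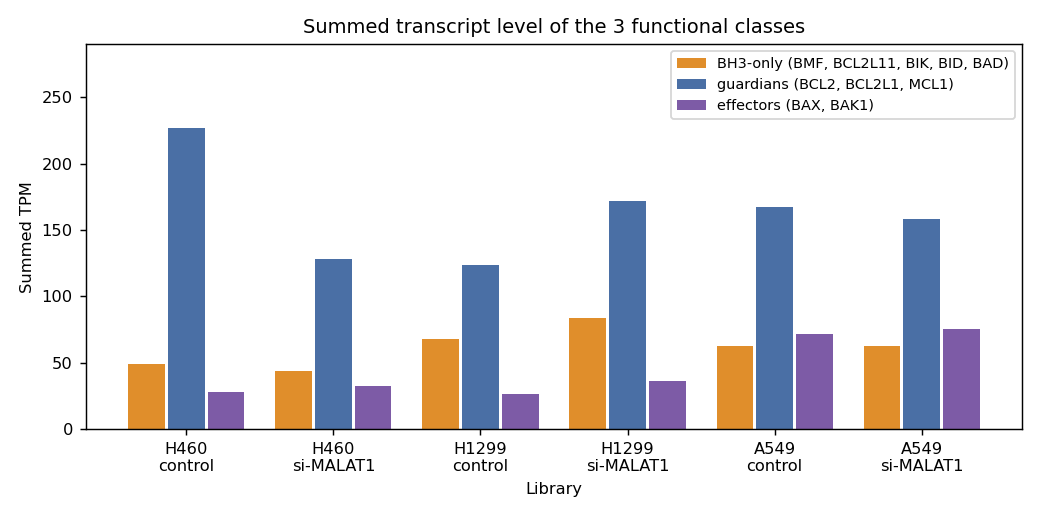
Summed TPM of the BH3-only, guardian, and effector genes in each library, 1 library per bar group and no error bars. The guardian sum is the highest in each library, from 124 to 227 TPM, and drops to 128 TPM in H460 after si-MALAT1.

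The levels of the family differed between the cell lines more often than with si-MALAT1 in the same test. In this edgeR fit, with the control and si-MALAT1 library of a line as its 2 libraries, H460 differed from H1299 in 52.6% of genes and from A549 in 38.2%, and H1299 differed from A549 in 48.9%. Of the 10 members, 6 were called between H460 and H1299 (3 higher and 3 lower in H460), 6 between H460 and A549 (2 higher and 4 lower in H460), and 7 between H1299 and A549 (4 higher and 3 lower in H1299). With 38.2% to 52.6% of all genes called, such counts among 10 genes are not particular to the family.

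BMF was 8.28-fold higher in H1299 than in H460 and 3.96-fold higher in H1299 than in A549. The fitted log2 differences were -3.05 for H460 minus H1299 (SE 0.25, edgeR adjusted p = 0.000229) and 1.99 for H1299 minus A549 (SE 0.24, adjusted p = 0.0012). Both held when any 1 of the 6 libraries was left out. A549 was above H460 by 1.06 on the log2 scale (adjusted p = 0.0176), but this call was lost without the H460 control (adjusted p = 0.0699) or the A549 control (0.113). The order of BMF was therefore H1299, A549, and H460, with the lower pair not separated in every fit. The spread in this fit is how the change with si-MALAT1 differed between the lines. BMF was picked for rising in each line, so its SE and p-values are not independent of the pick.

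BCL2 separated H460 from the others. It was 9.62-fold higher in H460 than in H1299 (log2 3.27, SE 0.18, edgeR adjusted p = 5.17e-05) and 18.1-fold higher than in A549 (log2 4.18, SE 0.19, adjusted p = 5.41e-05). BCL2L1 went the other way. It was 5.84-fold higher in A549 than in H460 (adjusted p = 0.00078) and 2.97-fold higher in A549 than in H1299 (adjusted p = 0.00318). These 4 differences held without any 1 library. The H460 and H1299 levels of BCL2L1 (adjusted p = 0.0167) were not separated without the H460 si-MALAT1 library (0.0599) or the H1299 si-MALAT1 library (0.0733). The H1299 and A549 levels of BCL2 (adjusted p = 0.00801) were not separated without the A549 control (0.0524) or the A549 si-MALAT1 library (0.0968).

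BAX was highest in A549, 2.64-fold above H460 (edgeR adjusted p = 0.00117) and 4.27-fold above H1299 (adjusted p = 0.000217), and both held without any 1 library. H460 was above H1299 in BAX by 0.69 on the log2 scale (adjusted p = 0.0111), a call lost without the H460 or the H1299 si-MALAT1 library (0.0592 and 0.0648). BID was lowest in H1299, 1.61-fold under H460 (adjusted p = 0.00585) and 2.38-fold under A549 (adjusted p = 0.00068), and both held without any 1 library. Its A549 level was above H460 (adjusted p = 0.0165), which was lost without either library of H460 (0.0708 and 0.0766) or of A549 (0.149 and 0.147).

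The remaining differences rested on single libraries. BIK was 3.92-fold higher in H1299 than in H460 (edgeR adjusted p = 0.0359) and 5.08-fold higher in H1299 than in A549 (adjusted p = 0.0214). The first was lost without the H460 si-MALAT1 library (0.156), the H1299 control (0.0575), or the H1299 si-MALAT1 library (0.199). The second was lost without the H1299 si-MALAT1 library (0.192), the A549 control (0.13), or the A549 si-MALAT1 library (0.0594). MCL1 was 2.17-fold higher in H460 than in A549 (adjusted p = 0.0363), lost without the H460 control (0.133), the A549 control (0.301), or the A549 si-MALAT1 library (0.0658). Its level was not called different between H460 and H1299 (0.0967), but was without the H460 si-MALAT1 library (0.00178) and in DESeq2 (0.0406). BAD was 1.4-fold higher in H1299 than in A549 (adjusted p = 0.0273), lost without any of the 4 libraries of these lines (0.0567 to 0.227). BCL2L11 was not called between any 2 lines, with adjusted p-values of 0.585, 0.104, and 0.194, and BAK1 was not called either, with 0.113, 0.784, and 0.0763. Leaving out the H460 control gave BCL2L11 0.0208 between H460 and A549. Leaving out the H1299 control gave BAK1 0.0456 between H460 and H1299 and 0.0346 between H1299 and A549.

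Further genes of the family were followed as a list of 13, of which 9 had a read in every library and 10 were tested. Of these 10, 0 passed in edgeR and 0 in DESeq2, and 1 had an unadjusted edgeR p under 0.05, against 15.0% of all genes tested. The median log2 fold change of the 9 genes was 0.02 in H460, 0.27 in H1299, and 0.04 in A549. BBC3, the gene of the BH3-only protein PUMA, had log2 fold changes of -0.06, -0.07, and -0.04 in H460, H1299, and A549. Its counting interval included 0 in each line, and in A549 its direction turned with the unit, from 10.1 to 11.2 TPM. BNIP3, the gene of a mitochondrial receptor for autophagy, had log2 fold changes of 0.21, 0.74, and 0.27 (edgeR adjusted p = 0.287). The values were 0.02, 0.47, and 0.23 for the related BNIP3L and 0.09, 0.41, and 0.12 for BCL2L13. In H460 the direction of these 2 genes turned with the unit, since BNIP3L went from 26.0 to 24.0 TPM and BCL2L13 from 23.6 to 21.7 TPM. PMAIP1, the gene of NOXA, which binds MCL1, is named after its values were seen. Its reads went from 2440 to 1155 in H1299, where the log2 fold change was -0.95 (-1.05 to -0.85), with 0.04 in A549 and 0.25 in H460. BCL2L10 had 0 reads in the 6 libraries, and BCL2A1, the gene of a guardian, had 273 and 215 reads in A549 and at most 6 in the other lines.

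Downstream of the family lie the apoptosome, the caspases, and their inhibitors, a list of 13 genes that were all tested. Of these, 0 passed in edgeR, and 4 had an unadjusted p under 0.05, where 15.0% of all genes did. In DESeq2, 3 were lower and 0 higher, where 4.25% of all genes were lower and 4.15% higher. The list's median log2 fold change was 0.08 in A549, 0.0 in H460, and -0.01 in H1299. Among these 3 were BIRC3 and HTRA2. BIRC3, which encodes an inhibitor of apoptosis and a ubiquitin ligase, had log2 fold changes of -1.09, -0.58, and -0.64 in H460, H1299, and A549 (adjusted p = 0.0994 in edgeR and 0.000128 in DESeq2). HTRA2, whose mitochondrial protease is released to act against such inhibitors, had -0.5, -1.07, and -0.88 (0.092 in edgeR and 0.000193 in DESeq2). BIRC3 thus encodes an inhibitor of apoptosis and HTRA2 a protein that promotes it. CASP6, a caspase gene, was higher in each line, at 0.49, 0.26, and 0.36 (edgeR adjusted p = 0.26).

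Partners and regulators of the members made up a list of 10 genes, and all were tested. Of these, 0 passed in edgeR or DESeq2, and 2 of the 10 had an unadjusted edgeR p under 0.05, near the 15.0% of all genes. The median log2 fold change was -0.07 in H460, 0.31 in H1299, and 0.07 in A549. MAPK8, the gene of the kinase JNK1, had log2 fold changes of 0.35, 0.31, and 0.31 in H460, H1299, and A549 (edgeR adjusted p = 0.258). FBXW7, part of a ligase that marks MCL1 for degradation, had 0.25, 0.31, and 0.38 (0.285). FOXO1, a transcription factor known to activate BH3-only genes, had 0.14, 0.68, and 0.24 (0.385), and VDAC2, whose channel holds BAK at mitochondria, had -0.11, -0.24, and -0.29 (0.396). In H460 the direction of FOXO1 turned with the unit, since it went from 4.45 to 4.28 TPM. FOXO3, of the same list and also named after its values were seen, had -0.36, 0.27, and -0.47. DYNLL2 and MYO5A, the genes of the light chain and motor that hold BMF, are named after their values were seen. DYNLL2 had -0.06, -0.16, and 0.09, and MYO5A had -0.08, 0.83, and 0.1. Across the 3 lists, 8 of 32 genes with a read in every library were higher in all 3 lines and 5 were lower, against 21.4% and 18.8% of all genes.

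The genes whose profile over the 6 libraries lay closest to that of BMF were not members of the family. The measure was the root mean square difference of the centred log2 profile, over 14463 genes with a mean count of at least 50. The closest were the lncRNA STX17-AS1 at 0.47, DNAJB5 at 0.53, C2orf50 at 0.54, ACTRT3 at 0.59, and the lncRNA SNHG31 at 0.59. Their log2 fold changes ranged from 0.02 for C2orf50 in A549 to 1.84 for C2orf50 in H460. STX17-AS1 and C2orf50 had mean counts of 57.2 and 53.7, near the minimum of 50. The profile of BMF holds the rise it was picked for, so positive changes among its nearest genes follow from the measure. The closest members were BIK at 1.09, BAK1 at 1.24, and BCL2L11 at 1.38, which ranked 628, 1547, and 3019 by this measure. BCL2, whose level was highest in H460 where BMF was lowest, was the farthest at 2.9.

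The 250 bases before the start of BMF and of BCL2L11 are shown because these BH3-only genes were both higher in each line. RefSeq windows on GRCh38.p14 were found for 8 of the 10 members, not for BIK and MCL1. Searched on both strands were GTAAACA, bound by FOXO factors, GGGCGG, bound by SP1, CACGTG, bound by MYC and related factors, TGACGTCA, bound by CREB, and TGANTCA, bound by AP-1. Matches are in capitals, and overlapping matches run together. The BMF window is chr15:40108880-40109129 on the minus strand and the BCL2L11 window chr2:111120664-111120913 on the plus strand.
BMF: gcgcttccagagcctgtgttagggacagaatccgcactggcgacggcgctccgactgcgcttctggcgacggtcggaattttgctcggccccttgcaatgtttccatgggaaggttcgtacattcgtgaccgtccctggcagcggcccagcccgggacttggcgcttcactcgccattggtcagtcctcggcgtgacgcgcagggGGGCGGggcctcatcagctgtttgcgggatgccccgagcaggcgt
BCL2L11: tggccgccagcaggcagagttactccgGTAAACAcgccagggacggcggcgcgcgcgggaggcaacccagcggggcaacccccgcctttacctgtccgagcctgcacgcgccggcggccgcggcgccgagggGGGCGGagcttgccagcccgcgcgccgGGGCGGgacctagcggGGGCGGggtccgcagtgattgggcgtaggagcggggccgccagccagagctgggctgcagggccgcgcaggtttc

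The BMF window held 1 GGGCGG and no other motif, with 65.2% G and C and 26 CpG. A second BMF window, at chr15:40106967-40107216, held none of the motifs, with 48.8% G and C and 0 CpG. The BCL2L11 window held 1 GTAAACA and 3 GGGCGG, with 76.8% G and C. The motifs were not limited to members that were higher. BAK1, higher in each line, had 2 GGGCGG, and the 5 windows of BID had 0 to 4 and 2 of them a CACGTG. Both windows of BAD had 1 GGGCGG, and BAX had 1 with 4 CACGTG, while the windows of BCL2 and BCL2L1 held none of the motifs. Windows of a gene can overlap. The CACGTG of the 2 BID windows is the same site, and so is the GGGCGG of the BAD windows. Of all 35116 windows, 2.98% held GTAAACA, 42.6% GGGCGG, 6.34% CACGTG, 1.65% TGACGTCA, and 6.57% TGANTCA. A match describes these letters only.

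In the 3′ UTRs, 2 words of 7 bases were searched, TGAATCA and ATGAATC, which earlier work on these libraries had found among genes lower after si-MALAT1. Either word was present in 2 of the 10 members, against 17.4% of 12720 genes with a 3′ UTR and a read in every library. BID holds ATGAATC 246 bases after its stop codon, at chr22:17735319-17735343 on the minus strand. BCL2 holds TGAATCA 4463 bases after its stop codon, within the stretch chr18:63124147-63124171 on the minus strand. The words are in capitals.
BID: catccacacATGAATCtgcacatct
BCL2: cttacccagTGAATCAttctgttcc

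BID was lower by little in each line, as given above, and BCL2 was not. Because the words were found in these same libraries, setting them beside these directions is a description and no test. BMF, BCL2L11, and BAK1 hold neither word, over 3′ UTRs of 3897, 4213, and 1251 bases. Nor do BCL2L1, MCL1, and BIK, the members lower by at least 1.5-fold in a line. Of the genes named from the lists, FOXO1 carries a word and BIRC3 and HTRA2 do not.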

How the data were processed

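Total RNA was sequenced after removal of ribosomal RNA with a stranded kit. The authors trimmed the reads, aligned them with HISAT2 2.1.0, and estimated counts, FPKM, and TPM per gene with StringTie. The processing notes name StringTie 1.3.4b and the builds hg19 and GRCh38, and the methods name another StringTie version and hg38. Coordinates here are from the deposited GRCh38 annotation. The counts were deposited unnormalized, as whole numbers. For length and depth, the authors scaled the deposited FPKM and TPM, of which FPKM was not used. The table holds 18 columns of values from other samples, which were not used. Whether counting used the strand is not stated in the sources used here.

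From the counts, log2 fold changes within a line were taken on RLE-scaled counts plus 1, for 17834 genes with a read in every library, with exact 95% Clopper-Pearson intervals that cover counting error only. A fold of 1.5 was the threshold. No p-value was computed within a line. Across lines, edgeR 4.0.16 (R 4.3.3) was used with TMM, filterByExpr, the quasi-likelihood test, and the cell line as block. The control and si-MALAT1 library of a line come from the same cell line, which is the pairing. The same fit gave the contrasts between lines, where a line's 2 libraries differ in treatment, which is a term of the fit. P-values were adjusted by Benjamini-Hochberg over all genes tested. DESeq2 1.42.0, RLE factors, no filter, no block, and leaving out lines or libraries were the alternatives. The edgeR script and the intervals were tested on simulated data. BH3 cores, 3′ UTR words, and promoter motifs were searched with Python 3.11.15.

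The members and the lists were chosen with earlier results of these data known. Named from each list were up to 4 genes with a mean count of at least 50, changed the same way in the 3 lines, with the largest smallest change, and the 5 genes nearest to BMF in profile. Exceptions are stated where they occur. Of the genes this rule and the checks name, 2 are not reported here.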

Additional observations from a re-analysis of the deposited data

Results flagged for a closer look

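For 4 of the 10 genes the counting intervals of the log2 fold change left 0 in opposite directions between cell lines. For BIK the log2 fold change was -0.89 in H460, and it was 1.12 in H1299 and 1.21 in A549. For MCL1 it was 0.55 in A549 and 0.46 in H1299 against -0.72 in H460. For BCL2L1 it was -0.88 in A549 and -0.46 in H460 against 0.13 in H1299. For BAX it was 0.2 in H460 and -0.24 in H1299. The difference between lines was not tested, because there is 1 library per line and condition.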

How the results depend on the processing

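With si-MALAT1 against control across the lines, DESeq2 called 563 genes higher and 577 lower where edgeR called 0 and 1. Without the cell line block, as without the filter, edgeR called 0 lower, and the adjusted p of MALAT1 was 1.0 and 0.171. Leaving out a line gave 0 to 51 genes higher and 0 to 112 lower, with 51 and 112 without H460 and 0 and 0 without H1299 or A549. MALAT1 had an adjusted p of 0.00706, 0.125, and 0.275 without H460, H1299, and A549. Without the block, 0 of the 9 tested members were called, as with it. The log2 value of MCL1 then turned to -0.1 and that of BAX to 0.02. With a line left out, MCL1 ran from -0.14 to 0.49 and BAX from -0.11 to 0.11. Genes higher in H460 than A549 were 3688 and ran from 1883 to 4350 with a library left out, and genes lower were 3615 and ran from 1680 to 4156. For H1299 and A549 these were 4682, with 3020 to 5836, and 4672, with 2810 to 5385. The lowest came without the A549 control or si-MALAT1 library. Between H460 and H1299, 5085 were higher and 4974 lower, and no alternative moved these by over 1.5 times. With a library left out, the sign changed in 3 log2 differences between lines, over ranges of -0.49 to 0.2 for BCL2L11 (H460 minus H1299), -0.75 to 1.35 for BIK, and -0.13 to 0.26 for BAK1 (both H460 minus A549), none of which was called. Without the filter, BIK between H460 and H1299 (adjusted p = 0.0657) and MCL1 between H460 and A549 (0.0684) were no longer called.

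Within lines, log2(TPM + 1) gave 670 genes higher and 896 lower by 1.5-fold in A549, 236 and 803 in H460, and 1030 and 778 in H1299. With no filter on zeros the counts were 5021 and 4458, 4673 and 4426, and 5507 and 5256. The members' log2 values moved by more than their counting interval in 14 of 120 cases, each on log2(TPM + 1). BMF moved in each of the 3 lines. Read depth limits BIK most, which had the widest counting intervals.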
